A study of Drosophila melanogaster with 6 samples.

Results

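Genes of the septate junction and of its Ly6 helper proteins were followed in Drosophila melanogaster S2* cells, which derive from the haemocyte-like S2 line. The cells were treated with 20-hydroxyecdysone (20E), the steroid that triggers moulting in insects, or left untreated. The genes are Cont, Nrx-IV, Nrg, cora, kune, sinu, crok, crim, cold and bou, 10 of the 11982 genes named on the arrays. They were chosen by gene name, through the probe annotation, with results of this same 20E comparison already known, so their differences below are a description and not a test. Each probe set annotated to exactly 1 of these genes was kept, which gave 12 probe sets, 3 of them for Nrg and 1 for each other gene.

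The study has 6 Affymetrix Drosophila 2.0 arrays of total RNA, 3 from cells kept for 24 h in 1 µM 20E and 3 from untreated cells. Both groups were the same S2* cells in the same medium, and no solvent and no time is recorded for the untreated samples, so effects of solvent or time cannot be told apart from that of the hormone. Whether replicates were separate cultures is not stated in the labels, and the p-values therefore cover no more than the spread between these arrays, which could be technical. In these bulk samples, a change in the share of cells that express a gene and a change in RNA per cell cannot be told apart.

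Septate junctions are the occluding junctions of insect epithelia and of the glial sheath around the nervous system, where they seal the space between cells. Their core holds the adhesion proteins Contactin, Neurexin-IV and Neuroglian, the cytoplasmic linker Coracle, and claudins, which are small membrane-spanning proteins of the barrier. Proteins of the Ly6 family are small, mostly anchored to the membrane by a lipid, and several of them are needed in the fly to build or transport the junction.

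The deposited value is a linear intensity per probe set and array, and values quoted here are quantile normalized between arrays unless called deposited. Differences are given on the log2(normalized intensity + 16) scale, as 20E minus untreated with the standard error (SE), and a probe set is said to pass where its adjusted p in the limma fit of all 18767 probe sets that could be tested was below 0.05. Medians of the deposited intensities lay between 43.2 and 56.4 per array. The arrays of 20E replicates 1 and 3 correlated with r = 0.952 over 18080 probe sets, against 0.868 and 0.877 for each of them with 20E replicate 2, which also held 456 of the 736 empty cells of the table. The probe sets empty on 20E replicate 1 had a median deposited intensity of 594 on the other 20E arrays, against 55.3 for all probe sets, and 21 of those 76 were among the probe sets higher in 20E, so that empty cells there lay mostly at bright probe sets. Among the 12 probe sets, 4 of the 36 values of 20E cells were empty and 0 of the untreated ones.

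In 20E-treated cells, 6 of the 10 genes were higher and passed the fit, namely Cont, kune, sinu, crok, crim and cold, and 0 were lower (also 0 at p under 0.05 before adjustment). The mean intensities of these 6 in 20E cells were between 2.99 and 5.13 times those in untreated cells. Over all named genes, by the brightest probe set of each, 3.74% passed as higher and 2.84% as lower, and over all probe sets 3.02% and 2.08%. Since this contrast was in view when the genes were chosen, nothing is read from that count. The median difference of the 10 genes was 1.74, against −0.02 over all named genes. The values of the 2 groups did not overlap for 8 of the 12 probe sets, 7 with 20E higher and 1 with 20E lower, against 11% and 12.6% of all probe sets.

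**Figure D1:**
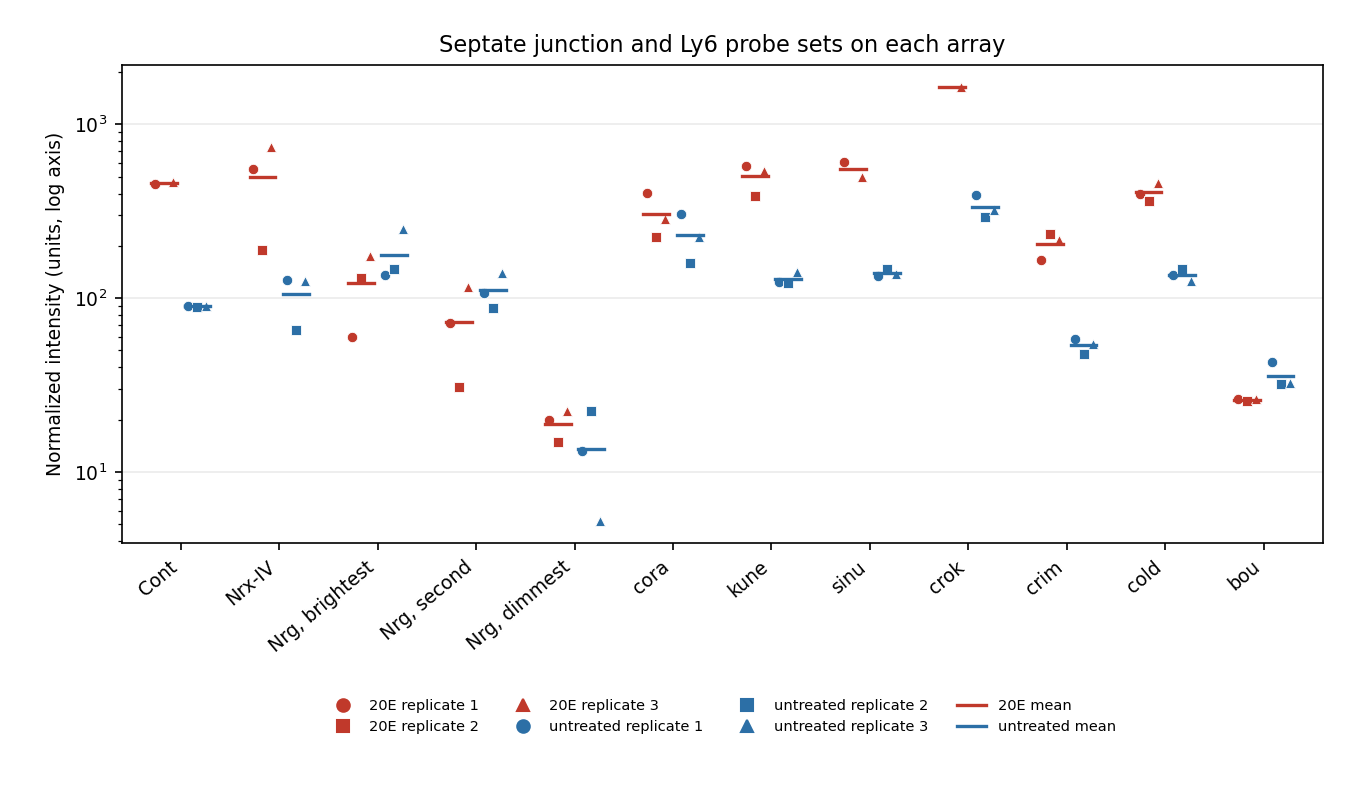
Normalized intensity (log axis) of the 12 probe sets on each array, with 20E arrays in red left of untreated arrays in blue, a marker shape per replicate number and a bar at each group's mean. The 20E values of Cont, Nrx-IV, kune, sinu, crok, crim and cold lie above their untreated values, those of bou lie below, and those of cora and Nrg overlap.

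Cont encodes Contactin, a lipid-anchored adhesion protein of the immunoglobulin superfamily that is laid down at the junction together with Neurexin-IV. Its probe set read 451 and 469 intensity units on 20E replicates 1 and 3, against 89.8, 88.9 and 90.3 on untreated replicates 1, 2 and 3. The cell of 20E replicate 2 was empty. The lower 20E value was 5 times the highest untreated value. The untreated values spread by 0.776% after normalization (SD over mean, n = 3). Before it they lay further apart, with deposited intensities of 75.45, 92.09 and 90.27. The difference was 2.17 ± 0.21 (SE, n = 2 and 3 arrays), which is higher than that of 98.7% of all probe sets tested, and it passed on leaving out any 1 array.

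Nrx-IV encodes Neurexin-IV, the transmembrane partner of Contactin. It read 557, 188 and 740 units on 20E replicates 1, 2 and 3, against 128, 65.9 and 125 on the untreated ones. The groups did not overlap, but 20E replicate 2 lay 1.47 times above the highest untreated value while the other 20E arrays lay far above it. Its mean was 495 ± 281 in 20E cells and 106 ± 35.1 in untreated cells (SD, n = 3 each), and the difference of 1.91 ± 0.51 did not pass. Without 20E replicate 2 the difference was 2.49 and passed, and the other arrays left out gave 1.51 to 2.07, none of which passed. The number-2 array was the lowest of its group in both groups.

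Nrg encodes Neuroglian, an adhesion protein of the immunoglobulin superfamily that neurons and epithelia make in different isoforms, and the RefSeq gene table lists 9 transcripts for it. The brightest of its probe sets read 59.6, 130 and 176 units on the 20E arrays, against 135, 147 and 249 on the untreated arrays. The second in brightness read 72, 30.7 and 116 in 20E cells, against 107, 87.9 and 140 in untreated cells. The groups overlapped for both, and their differences were −0.54 ± 0.40 and −0.62 ± 0.39. The third was dim, with 14.8 to 22.3 units in 20E cells against 5.22 to 22.4 in untreated cells, and its difference was 0.28 ± 0.26. None of the 3 passed under any alternative tried, and they did not share a direction.

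The gene cora encodes Coracle, a cytoplasmic protein of the FERM family that binds the tail of Neurexin-IV. It read 404, 225 and 285 units in 20E cells, against 307, 159 and 226 in untreated cells. Within each replicate number the 20E value was the higher one, but the groups overlapped. The difference was 0.39 ± 0.31 with a 95% interval from −0.36 to 1.13. Its upper end lies below the difference of 2.17 for Cont, but the interval overlaps that of cold, from 1.02 to 1.93.

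The claudins Kune-kune and Sinuous of the junction are encoded by kune and sinu. The kune probe set read 579, 387 and 542 units in 20E cells, against 124, 123 and 142 in untreated cells. Its mean of 503 ± 102 in 20E cells stood against 129 ± 10.7 in untreated cells (SD, n = 3 each). The groups were far apart, with the lowest 20E value 2.73 times the highest untreated one. The difference was 1.82 ± 0.22 and passed on leaving out any 1 array.

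For sinu the values were 605 and 501 units on 20E replicates 1 and 3, with an empty cell on 20E replicate 2, against 134, 147 and 138 units in untreated cells. The lower 20E value was 3.42 times the highest untreated value, and the difference was 1.87 ± 0.22. It no longer passed without 20E replicate 1, 20E replicate 3 or untreated replicate 3, where the difference was between 1.71 and 2.00. Leaving out either of those 20E arrays left 1 20E value, which is assumed to vary like the untreated ones.

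The Ly6 genes crok (crooked), crim (crimpled) and cold (coiled) are each known to be needed for septate junction assembly in the fly embryo. The crok probe set had a single 20E value, 1651 units on replicate 3, with empty cells on replicates 1 and 2. The untreated values were 390, 294 and 321 units. The 20E value was 4.23 times the highest untreated one, and the difference of 2.26 ± 0.32 passed only on the assumption that this lone value varies like the untreated ones. The call was lost without 20E replicate 1 or any 1 untreated array, and without 20E replicate 3 no 20E value was left.

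The crim probe set read 167, 234 and 217 units in 20E cells, against 58.4, 48 and 54.3 in untreated cells. Here 20E replicate 1 was the lowest of the treated arrays, at 2.86 times the highest untreated value. The mean was 206 ± 34.9 in 20E cells and 53.6 ± 5.24 in untreated cells (SD, n = 3 each), with a difference of 1.66 ± 0.21 that passed on leaving out any 1 array.

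For cold the intensities were 397, 364 and 461 units in 20E cells, against 136, 148 and 125 in untreated cells. The groups did not overlap, and the 20E values spread by 12% of their mean (SD over mean, n = 3). The difference of 1.47 ± 0.19 was lost only without untreated replicate 3, where it was 1.43.

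The remaining Ly6 gene, bou (boudin), encodes a protein that is also needed for septate junctions and that can be released from the cells that make it. It read 26.2, 25.6 and 26.3 units in 20E cells, against 43, 32.3 and 32.4 in untreated cells. The groups did not overlap, with 20E lower, and the difference of −0.30 ± 0.19 did not pass under any alternative tried. The probe set was dim, brighter on average than 32.9% of all probe sets, and its direction was opposite to that of the other Ly6 members.

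**Figure D2:**
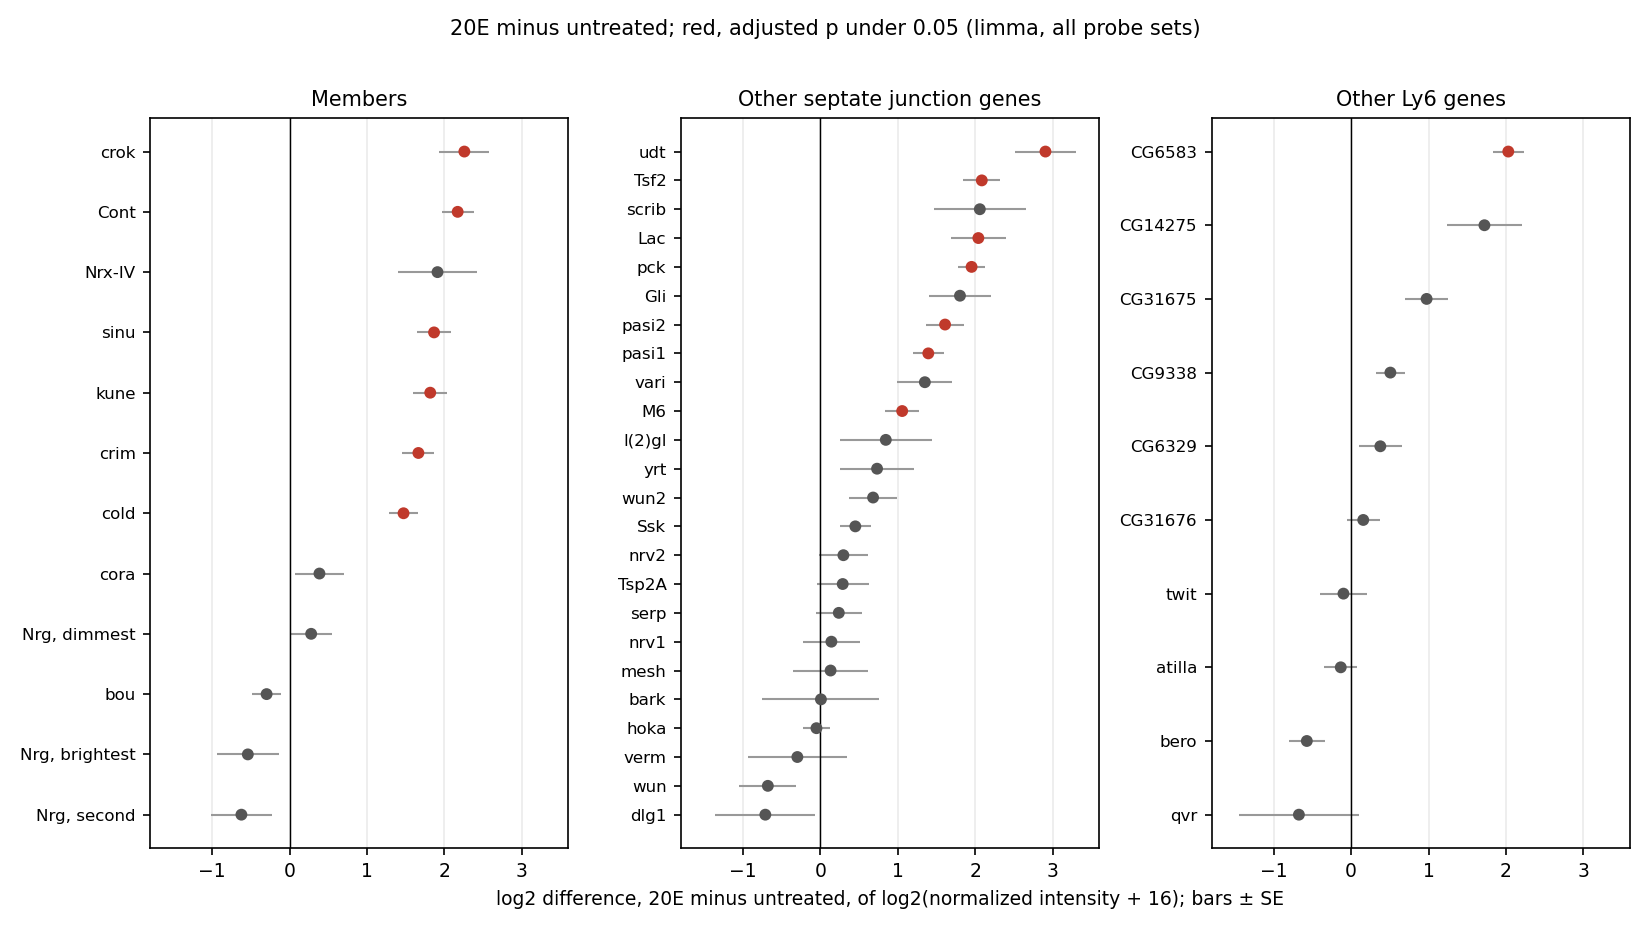
The log2 difference (20E minus untreated, horizontal axis, bars ± SE) of the 12 probe sets, of 24 other septate junction genes and of 10 other Ly6 genes, sorted within each panel, with those past an adjusted p of 0.05 in red. The 7 highest members lie between 1.47 and 2.26, the rest between −0.62 and 0.39, and no red point lies below 0.

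The higher members differed by similar amounts. Before normalization between arrays, the ratio of mean deposited intensity, 20E over untreated, was between 3.38 and 6.05 for Cont, Nrx-IV, kune, sinu, crok, crim and cold, against 2.99 to 5.13 after it. Over the 6 arrays, the log2 values of cold and kune correlated with r = 0.98, crim and cold with 0.967, and crim and kune with 0.941. For Nrx-IV r was lower, at 0.794 with crim, 0.863 with cold and 0.913 with kune. The 6 arrays share the 2 groups, so these values describe the common step between groups. Among the 9 probe sets with values on all 3 20E arrays, 20E replicate 2 was the lowest of them in 7, against 41.8% of all such probe sets, and it was lowest in 58.1% of the 501 such probe sets that passed as higher. By the rule for likeness, the named genes closest to crok, the member with the largest difference, were CG5080, CG1146 and Lamtor5, each with r of at least 0.9997. That rests on only 4 arrays, and 680 of the 6637 genes searched had r of at least 0.95.

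**Figure D3:**
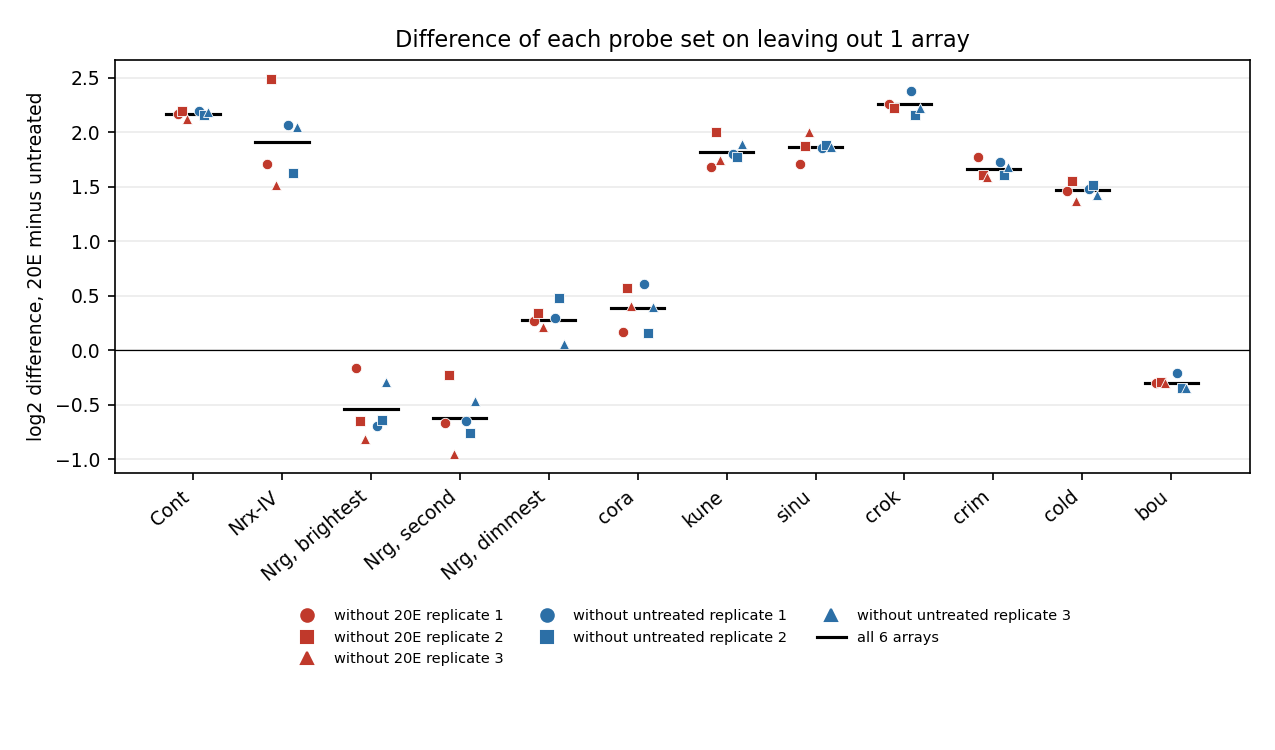
The log2 difference of each of the 12 probe sets with all 6 arrays (black bar) and after leaving out each array in turn (points, 20E arrays in red left of untreated arrays in blue). For crok there is no point without 20E replicate 3, and the widest spread among the members above 1 is that of Nrx-IV, from 1.51 to 2.49.

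Most genes of a wider septate junction list did not pass. The list is broad and includes genes that do not encode parts of the junction, such as verm, which encodes a secreted enzyme. Of its 27 genes, 24 were measured and 17 of these did not pass. With 20E, 7 rose and 0 fell (also 0 by limma at p under 0.05 before adjustment), against the 3.74% and 2.84% of all named genes given above. Of the 24 differences, 20 were above 0 and 4 below. The median difference of the 24 was 0.71. The groups did not overlap for 11 of them, in each case with 20E higher. Over all probe sets, 11% had such groups with 20E higher and 12.6% with 20E lower. These genes were not members, but the list was written with earlier results of these data known.

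The largest rise among them was that of udt, undicht, which is needed for junction assembly. It read 468, 306 and 452 units in 20E cells, against 68.6, 15.1 and 49.6 in untreated cells, a difference of 2.91 ± 0.40 (adjusted p = 0.00934). Tsf2, which encodes the iron-binding protein Melanotransferrin of the junction, read 438, 291 and 444 units in 20E cells, against 93.3, 73.8 and 69.3 in untreated cells, a difference of 2.09 ± 0.24 (adjusted p = 0.00473). Both sets of values lay far above the untreated ones, and the call of Tsf2 held on leaving out any 1 array.

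The claudin gene pck, also called mega, rose like the claudin members kune and sinu. It read 503, 529 and 514 units in 20E cells, against 127, 111 and 126 in untreated cells, so the 3 arrays of each group lay close together. The difference was 1.95 ± 0.18 (adjusted p = 0.00168) and held on leaving out any 1 array. With it, each of the 3 claudin genes followed here was higher in 20E cells by between 1.82 and 1.95.

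The genes pasi1 and pasi2 encode membrane proteins that stabilise the core complex. The pasi1 probe set read 172, 210 and 219 units in 20E cells, against 68.5, 73.4 and 56.5 in untreated cells (difference 1.39 ± 0.20, adjusted p = 0.011). For pasi2 the intensities were 188, 322 and 260 units in 20E cells, against 64.2, 71.6 and 78.9 in untreated cells (difference 1.61 ± 0.24, adjusted p = 0.013). Neither pair of groups overlapped.

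M6, which encodes a proteolipid protein found where 3 cells meet, rose by 1.06 ± 0.22 (adjusted p = 0.0425), with 149, 149 and 127 units in 20E cells against 59.6, 76.1 and 45.9 in untreated cells. Lac encodes Lachesin, an immunoglobulin-type adhesion protein, and like crok it had a single 20E value. That value was 1376 units on replicate 3, against 408, 274 and 299 in untreated cells (difference 2.04 ± 0.36, adjusted p = 0.049). The call of M6 was lost on leaving out any 1 array, with adjusted p up to 0.176, and that of Lac without 20E replicate 1 or any 1 untreated array, with adjusted p up to 0.21. The calls of pasi1 were lost without 20E replicate 3 or untreated replicate 3 (up to 0.0724), those of pasi2 without 20E replicate 3 or untreated replicate 2 or 3 (up to 0.0696), and those of udt without 20E replicate 1 or 3 or untreated replicate 3 (up to 0.0568).

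**Figure D4:**
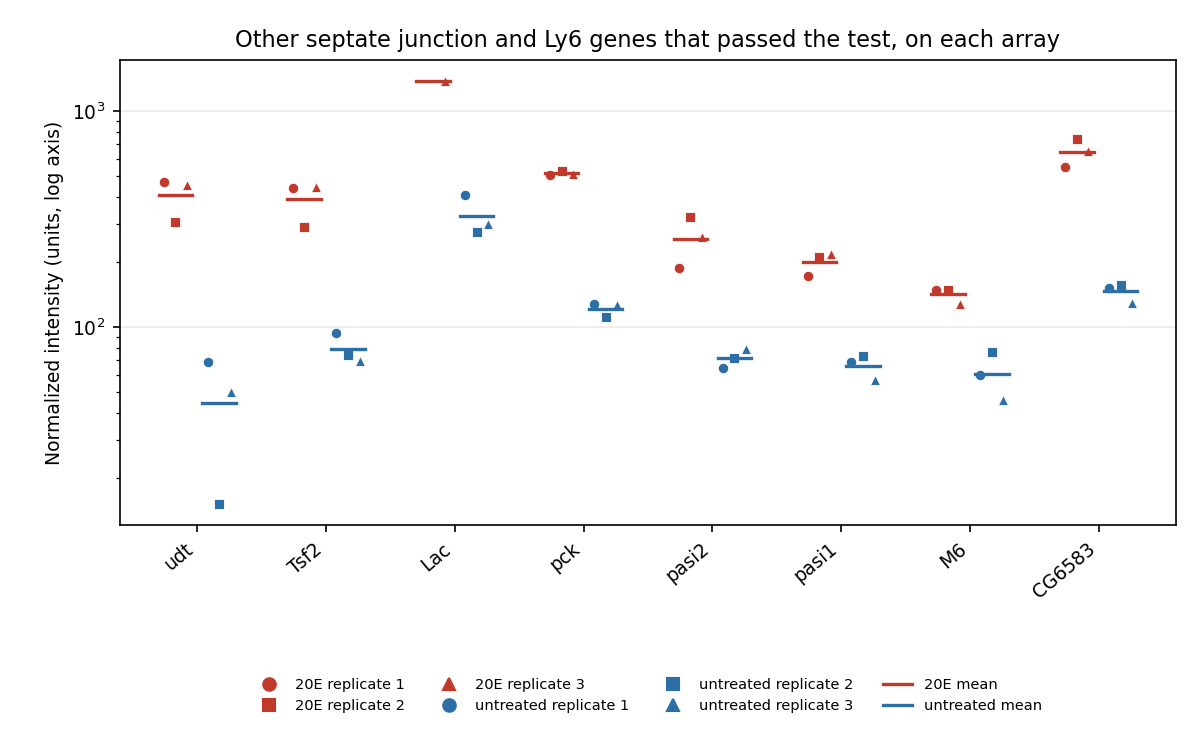
Normalized intensity (log axis) on each array of the 7 other septate junction genes and the 1 other Ly6 gene that passed, with 20E arrays in red left of untreated arrays in blue and a bar at each group's mean. The groups do not overlap for any of the 8, and Lac has 1 value in 20E cells.

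Gli, scrib and vari of the same list had non-overlapping groups with 20E above and differences over 1 without passing, and are named after their values were seen. Of these, Gli, which encodes Gliotactin at the meeting points of cells, differed by 1.80 ± 0.40 (adjusted p = 0.0521). The polarity gene scrib differed by 2.06 ± 0.59 (adjusted p = 0.118) on its brightest probe set, while its other 4 probe sets differed by −0.56 to 0.49. For vari, which encodes Varicose, a scaffold protein that binds Neurexin-IV, the difference was 1.35 ± 0.35 (adjusted p = 0.0906). Each of these 3 passed without 20E replicate 2, as did l(2)gl and yrt, and the count of other junction genes risen was then 11, against 7 with all arrays. Leaving out another array gave counts between 2 and 6, with 2 without 20E replicate 3 or untreated replicate 3, and 4 without 20E replicate 1 or untreated replicate 2.

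The 4 brightest genes of the list among those that did not pass had overlapping groups. The differences were 0.30 ± 0.32 for nrv2 and 0.14 ± 0.37 for nrv1, which encode subunits of the sodium pump, −0.71 ± 0.65 for the scaffold gene dlg1 and −0.30 ± 0.64 for verm, a chitin-modifying enzyme secreted into tracheal tubes. Of 4 genes that build the smooth septate junction of the gut, Ssk, mesh, Tsp2A and hoka, none passed, and their differences were between −0.05 and 0.45.

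Of 10 other Ly6 genes measured, out of 11 on the list, 1 rose and 0 fell, while before adjustment 4 were higher and 1 lower at p under 0.05. Over all named genes 3.74% passed as higher and 2.84% as lower. Before adjustment, 3230 of the 18767 probe sets tested had a limma p under 0.05, counting both directions. The gene that rose was CG6583. It read 551, 742 and 655 units in 20E cells, against 152, 157 and 130 in untreated cells, a difference of 2.03 ± 0.20 (adjusted p = 0.0026) that held on leaving out any 1 array. In the RefSeq gene table CG6583 is the direct neighbour of crok on chromosome arm 2L. CG31675, the brightest of the others, differed by 0.98 ± 0.27 (adjusted p = 0.11). On its brightest probe set qvr, a Ly6 regulator of sleep and potassium channels, differed by −0.67 ± 0.77 (adjusted p = 0.745). Another qvr probe set, nearly as bright, differed by 0.05, and a dimmer one by 0.59. The median of the list was 0.27, and without 20E replicate 2 the count risen was 2, against 1 with all arrays, CG14275 being the second.

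Most genes next to the members did not pass. Of 20 direct protein-coding neighbours in the gene table, 18 were measured, 2 rose, 1 fell and 15 did not pass. Over all named genes 3.74% passed as higher and 2.84% as lower. The 20 include the neighbours of bou, Nrg, Nrx-IV and cora, members that did not pass themselves. Besides CG6583, the one that rose was Sfxn1-3, next to Cont (difference 1.71, adjusted p = 0.00772), and the one that fell was CG7137, next to cora (difference −1.70, adjusted p = 0.041).

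Lists of other adhesion systems were set beside the junction. Over all named genes 3.74% passed as higher and 2.84% as lower, and 3230 of the 18767 probe sets tested had a limma p under 0.05 before adjustment. Of 11 adherens junction and polarity genes measured, 2 rose and 0 fell, while before adjustment 3 were higher and 0 lower at p under 0.05. These were p120ctn, a catenin that binds E-cadherin (difference 1.56 ± 0.22, adjusted p = 0.0152), and the polarity gene par-6 (difference 0.80 ± 0.17, adjusted p = 0.0494). The E-cadherin gene shg itself, which is not among the bright genes of the list, read 30.1, 21.4 and 28.2 units in 20E cells, against 40.7, 17.8 and 40.1 in untreated cells. The brightest gene that did not pass, alpha-Cat, read 436, 256 and 701 units in 20E cells, against 126, 145 and 250 in untreated cells. Its groups did not overlap, and its difference was 1.28 ± 0.41 (adjusted p = 0.156). Of the 11 differences, 9 were above 0 and 2 below. The call of par-6 was lost on leaving out any 1 array (adjusted p up to 0.187), and p120ctn, with no value on 20E replicate 2, was lost without 20E replicate 1 or 3 or untreated replicate 2 or 3 (up to 0.104). Of 14 other adhesion receptors measured, limma called 0, while before adjustment 1 was higher and 1 lower at p under 0.05. Named after their values were seen, the higher one was stan (difference 0.87 ± 0.34, adjusted p = 0.256) and the lower one Fas1. Fas1 read 35.7, 12.4 and 25 units in 20E cells, against 74.3, 73.5 and 67.6 in untreated cells. Its groups did not overlap, and its difference was −1.16 ± 0.26 (adjusted p = 0.0545).

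Markers of other cell types were followed because glia and neurons also use these junction proteins. The counts below stand against 3.74% of all named genes that passed as higher and 2.84% as lower. Of 5 glial markers measured, 1 rose, namely moody, a receptor known from the septate junctions of the blood-brain barrier (difference 1.63 ± 0.34, adjusted p = 0.0446). It passed on leaving out 1 array only without 20E replicate 2, with adjusted p up to 0.163. The summed glial intensity was 516 to 819 units in 20E cells and 236 to 427 in untreated cells. Most of it was loco, which read 575, 378 and 508 units in 20E cells, against 353, 174 and 206 in untreated cells. Its difference of 0.99 ± 0.31 did not pass (adjusted p = 0.146). The markers gcm and wrapper differed by 0.12 and 0.23 without passing. The defining glial regulator repo was below 0 on all 3 20E arrays and reached at most 8.09 units on an untreated one. The 7 neuron markers summed to 190 to 375 units in 20E cells and 253 to 297 in untreated cells, and the 4 muscle markers to 257 to 742 in 20E cells and 237 to 320 in untreated cells. Limma called 0 of either list, and also 0 at p under 0.05 before adjustment. Of 11 haemocyte markers, 4 rose and 1 fell. Named after their values were seen, those that rose were srp (difference 2.23), crq (2.67), vkg (1.54) and Col4a1 (1.23), with adjusted p of 0.0135 to 0.0356, and the one that fell was Nplp2 (−5.47, adjusted p = 2.63e-05), at 101 ± 5.83 units in 20E cells and 5167 ± 227 in untreated cells (SD, n = 3 each). The haemocyte sum, which includes Nplp2, was 6684 to 9979 units in 20E cells and 7135 to 8846 in untreated cells. Among the haemocyte markers that did not pass, ush read 294, 124 and 303 units in 20E cells, against 92.4, 48.7 and 88.7 in untreated cells. Its groups did not overlap, and its difference was 1.41 ± 0.39 (adjusted p = 0.103). Hml and Pxn differed by −0.13 and −0.31. The markers NimC1, eater and He stayed at or under 26.8 units in 20E cells and 37 in untreated cells. The part of such cells in the differences of the junction genes was not tested.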

How the data were processed

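The table that the authors deposited gives an intensity on a linear scale for 18769 probe sets on each of 6 arrays. How probes were summarised, background-corrected and scaled is not given in the sources used here. On the log2 scale the arrays lay up to 0.384 apart in median and up to 0.439 in trimmed mean. Quantile normalization was therefore applied, negative values were raised to 0, and log2(intensity + 16) was computed. Quoted intensities precede the floor. Differences of dim probe sets are compressed by the offset, and quantile normalization removes a shift of most transcripts one way. Detection calls are not used here, and the number of arrays limits precision.

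Groups came from sample titles. limma 3.58.1 in R 4.3.3 (lmFit, eBayes, two-sided) was fitted to all probe sets with Benjamini-Hochberg adjustment. Of these, 2 could not be tested, and 567 were called higher and 390 lower in 20E (723 and 307 without normalization between arrays). The fit was tested on simulated data.

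Symbols came from the platform annotation, with names brought up to date from RefSeq gene numbers of Release 6 (13544 of 13647 single-gene probe sets matched; 402 named several genes and 4720 none). A gene's representative is its brightest probe set.

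Named were all members, list genes that passed, up to 4 bright others per list, and the 3 genes most like the member with the largest called rise (Pearson r of log2 values). The members and lists were chosen with earlier results of these data known. Alternatives were other offsets, normalizations, filters and variance models, a replicate block, leaving out each array, and, added after seeing the data, probe sets with all 6 values only.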

Additional observations from a re-analysis of the deposited data

How the results depend on the processing

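No member probe set changed direction under the alternatives. The 6 member genes higher in 20E numbered 3 (without untreated replicate 3) to 7 (without 20E replicate 2) on leaving out 1 array, and 3 when probe sets with any empty cell were left out, a choice made after seeing the data that drops Cont, sinu and crok. The same counts held by probe set. The 7 other septate junction genes higher in 20E numbered 3 without variance moderation, 2 without the _s_at, _x_at and _a_at probe sets (where udt, pck, pasi2, M6 and Lac are not tested), and 2 to 11 on leaving out 1 array. The other Ly6 genes higher numbered 1 to 2 on leaving out 1 array. Over all probe sets, the 567 higher became 370 and the 390 lower 197 with an offset of 1, 247 and 150 without variance moderation, and 233 to 774 and 93 to 400 on leaving out 1 array. Without those multi-transcript probe sets, 349 were higher.

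A few genes with differences near 0 and no call changed sign. With all arrays, bark was at −0.0075 with an offset of 1 and −0.036 with median centring, and hoka at 0.043 without normalization between arrays. On leaving out 1 array the difference ranged from −0.69 to 0.62 for bark, −0.086 to 0.012 for hoka, −0.30 to 0.51 for mesh, −0.29 to 0.55 for nrv1, −0.014 to 0.49 for Tsp2A, −0.34 to 0.11 for twit and −1.02 to 0.13 for verm. Where the construction does not show it, the cause was not tested.

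Same-numbered 20E and untreated arrays deviated from their group means with r of 0.238, 0.374 and −0.02, and differently numbered ones with r of −0.397 to 0.338. The main fit did not take the numbers as pairs, but these few values do not show that pairing is absent. With the replicate block 6 member genes, 8 other septate junction genes and 572 probe sets in all were higher. Nrx-IV passed (difference 1.91), as did Gli, scrib and vari, while M6, p120ctn and par-6 did not. The genes crok and Lac, each with a single 20E value, could not be tested with the block and are not in those counts.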
